A study of Mus musculus with 10 samples.

Results

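In single mouse embryos at embryonic day (E) 7.5, RNA was measured for 9 genes of the major histocompatibility complex (MHC) class I pathway. These are the heavy chain genes *H2-K1*, *H2-D1* and *H2-Q2*, the light chain gene *B2m*, the peptide loading genes *Tap1*, *Tap2* and *Tapbp*, and the immunoproteasome genes *Psmb8* and *Psmb9*. They were chosen by gene symbol, and all 9 were among the 20974 genes of the table and among the 15603 genes that were tested. RNA of 10 whole embryos, each its own library, was sequenced: 5 *Rreb1*+/+ (wild-type) and 5 *Rreb1*-/- (mutant) from intercrosses of *Rreb1*+/- mice, numbered 2 to 6 in each genotype. The strain is labelled CD1, an outbred stock, and the methods give a mixed background of CD-1, 129 and C57BL6 mice, so that embryos can differ from each other across the genome. The mutant allele is a constitutive CRISPR deletion of most of the coding part of a single exon of *Rreb1*, a zinc finger transcription factor. The paper made 2 deletion lines and combined their data, and does not say which line was sequenced. Embryos of both genotypes lacked the parietal endoderm, which was removed for genotyping. The comparison asks how the transcripts of these 9 genes differ between embryos with and without functional *Rreb1*.

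Class I molecules display short peptides at the cell surface. Proteins are cut by the proteasome, whose catalytic subunits can be replaced by the immunoproteasome subunits Psmb8 and Psmb9. The transporter made of Tap1 and Tap2 carries the peptides into the endoplasmic reticulum, where tapasin (Tapbp) holds the empty heavy chain and beta-2 microglobulin (B2m) beside it until a peptide is bound. H2-K1 and H2-D1 are the classical heavy chains, while H2-Q2 belongs to the non-classical Qa family and is considered the mouse counterpart of human HLA-G. Class I expression is known to be low in the early embryo and to be raised by interferons and by NF-kB. In human cells RREB1 is known as a repressor of *HLA-G*, which is why *H2-Q2* is of interest in this mutant. The paper reports *H2-Q2* as upregulated in these mutant embryos.

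Of the 9 genes, 8 lie close together on chromosome 17, between *Tapbp* (chr17:33915899-33929292, plus strand) and *H2-Q2* (chr17:35342242-35346762, plus strand) in the GRCm38 build with GENCODE M21 gene models. *H2-K1* (chr17:33996017-34000347) and *Psmb9* (chr17:34181987-34187764) are on the minus strand, and *Tap1* (chr17:34187553-34197225), *Psmb8* (chr17:34197721-34201454), *Tap2* (chr17:34203527-34216321) and *H2-D1* (chr17:35262730-35267499) on the plus strand. *B2m* is on chromosome 2 (chr2:122147686-122153083, plus strand). *Tap1* and *Psmb9* run in opposite directions and in these gene models overlap by 212 bases at their 5′ ends. The RefSeq windows below place the *Psmb9* start elsewhere, so the overlap is stated for the GENCODE models only.

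The promoters of the 3 heavy chains, of *B2m* and of the shared *Tap1* and *Psmb9* start region are shown, because these are the genes on which the comparison turns. Each is the RefSeq window (GRCm38.p6) from 250 bases before the transcription start to 50 bases after it, written 5′ to 3′ on the strand of the gene. Capitals mark the NF-kB site of class I enhancer A (GGGGATTCC) in *H2-K1* and *H2-D1* and a spelling of the interferon response core (GAAANNGAA) in *B2m*. The windows are chr17:34000298-34000597 for *H2-K1*, chr17:35262844-35263143 for *H2-D1*, chr17:35342057-35342356 for *H2-Q2*, chr2:122147437-122147736 for *B2m* and chr17:34187306-34187605 for *Tap1*.
H2-K1: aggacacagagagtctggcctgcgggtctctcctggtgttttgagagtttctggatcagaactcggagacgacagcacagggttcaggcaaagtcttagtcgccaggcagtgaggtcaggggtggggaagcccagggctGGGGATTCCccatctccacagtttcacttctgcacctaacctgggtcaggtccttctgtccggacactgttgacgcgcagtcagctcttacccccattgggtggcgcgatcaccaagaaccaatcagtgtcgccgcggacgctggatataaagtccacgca
H2-D1: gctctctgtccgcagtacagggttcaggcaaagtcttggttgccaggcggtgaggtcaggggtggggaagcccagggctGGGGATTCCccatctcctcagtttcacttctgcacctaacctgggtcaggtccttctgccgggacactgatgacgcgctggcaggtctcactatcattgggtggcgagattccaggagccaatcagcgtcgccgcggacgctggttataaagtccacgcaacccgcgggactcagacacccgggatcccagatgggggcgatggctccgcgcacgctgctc
H2-Q2: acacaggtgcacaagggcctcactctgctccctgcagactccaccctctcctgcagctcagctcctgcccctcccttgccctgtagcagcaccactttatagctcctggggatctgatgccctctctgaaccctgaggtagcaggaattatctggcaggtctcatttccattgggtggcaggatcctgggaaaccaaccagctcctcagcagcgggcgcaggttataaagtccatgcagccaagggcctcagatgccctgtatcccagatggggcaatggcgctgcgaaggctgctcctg
B2m: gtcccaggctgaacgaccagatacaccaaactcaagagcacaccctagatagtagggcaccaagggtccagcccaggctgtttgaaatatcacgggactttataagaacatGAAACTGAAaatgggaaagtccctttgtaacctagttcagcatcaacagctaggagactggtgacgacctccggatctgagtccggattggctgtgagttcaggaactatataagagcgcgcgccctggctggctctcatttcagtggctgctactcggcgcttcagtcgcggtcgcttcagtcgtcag
Tap1: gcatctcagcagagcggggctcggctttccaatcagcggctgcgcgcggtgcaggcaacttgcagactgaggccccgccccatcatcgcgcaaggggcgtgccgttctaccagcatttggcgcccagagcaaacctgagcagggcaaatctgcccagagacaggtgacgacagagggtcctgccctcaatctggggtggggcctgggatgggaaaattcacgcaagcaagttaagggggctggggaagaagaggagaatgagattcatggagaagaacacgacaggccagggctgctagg

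Windows were found for 8 of the 9 genes, all but *Tap2*, with 2 starts for *H2-K1*. GGGGATTCC stood at position −111 from the start in *H2-K1* (−125 from its second start) and at −171 in *H2-D1*, and was not in the *H2-Q2* window. It occurred in 0.2496% of the 32851 RefSeq mouse promoters of this length, on either strand. The *H2-K1* and *H2-D1* windows were the same at 91.2% of 239 aligned bases, against 75.3% of 235 for *H2-K1* and *H2-Q2* and 73.4% of 274 for *H2-D1* and *H2-Q2*. GAAANNGAA, held by 8.56% of all promoters, was found in *B2m* alone (at −139). It is a single spelling of an interferon response core, and other spellings were not searched. The heavy chain windows are thus not shown to lack an interferon element. The letters TGACGCA (2.12% of all promoters), TGACGTCA (1.79%) and CCCCAAAC, the core of the Rreb1 matrix (1.78%), were in none of these windows. CCAAT was in the windows of 7 genes, and in 37.4% of all promoters. The *Tap1* and *Psmb9* windows cover the same 275 bases on opposite strands. A match is a run of letters and not a bound site, and the lack of one says only that the letters are not in this window.

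Expression is given as normalized counts, the reads of a gene divided by the size factor of its library. Libraries held 31467767 to 35786876 reads assigned to genes. *Rreb1* itself had 2365 to 2924 normalized counts in *Rreb1*+/+ and 3988 to 5715 in *Rreb1*-/- embryos, and since these are summed over all of its exons they do not check the deletion. The summed level of 4 Y-linked genes (*Uty*, *Kdm5d*, *Ddx3y* and *Eif2s3y*, all called higher) was 0 to 3.82 normalized counts in the 5 *Rreb1*+/+ embryos and in mutant 2 it was 2.12, against 5849 to 9171 in mutants 3 to 6. By this measure the *Rreb1*+/+ embryos and mutant 2 were female and the other 4 mutants male, and genotype and sex can be told apart only through mutant 2. Embryos numbered 5 and 6 had more of the endothelium and blood marker RNA (summed 10935 to 23247) than those numbered 2 to 4 (4478 to 6937), in both genotypes, so each gene is also given within these numbers. A whole embryo is a mixture, in which fewer cells of a type and less RNA per cell cannot be told apart. The paper reports that from E7.5 onwards mutants were smaller than wild-type littermates and delayed in development. The part of stage in the differences between genotypes was not tested.

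All 9 genes had a higher mean in *Rreb1*-/- than in *Rreb1*+/+ embryos. Of them, 2 rose past the threshold, *H2-K1* 1.43-fold and *Tap1* 1.93-fold (limma across all genes tested, Benjamini-Hochberg adjusted p under 0.05), and none fell. Of all genes tested, 3.11% rose (486 genes) and 1.15% fell (179 genes) in that fit. In limma 5 of the 9 genes had an unadjusted p under 0.05 (*H2-K1*, *H2-Q2*, *B2m*, *Tap1* and *Psmb9*), all higher in the mutants, as were 9.74% of all genes tested, while 8.21% were lower at that threshold. *Psmb9* reached the mean of 15 required for testing in the mutants only, and the other 8 genes reached it in both genotypes. The median log2 fold change of the 9 genes was 0.51, beside −0.02 over all genes tested, of which 7351 were above and 8252 below 0. On the recovered reads, edgeR and DESeq2 each called 3 of the 9 higher (*H2-K1*, *Tap1* and *Psmb9*) and none lower, beside 3.28% and 5.03% of all genes called higher by these tools.

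**Figure D1:**
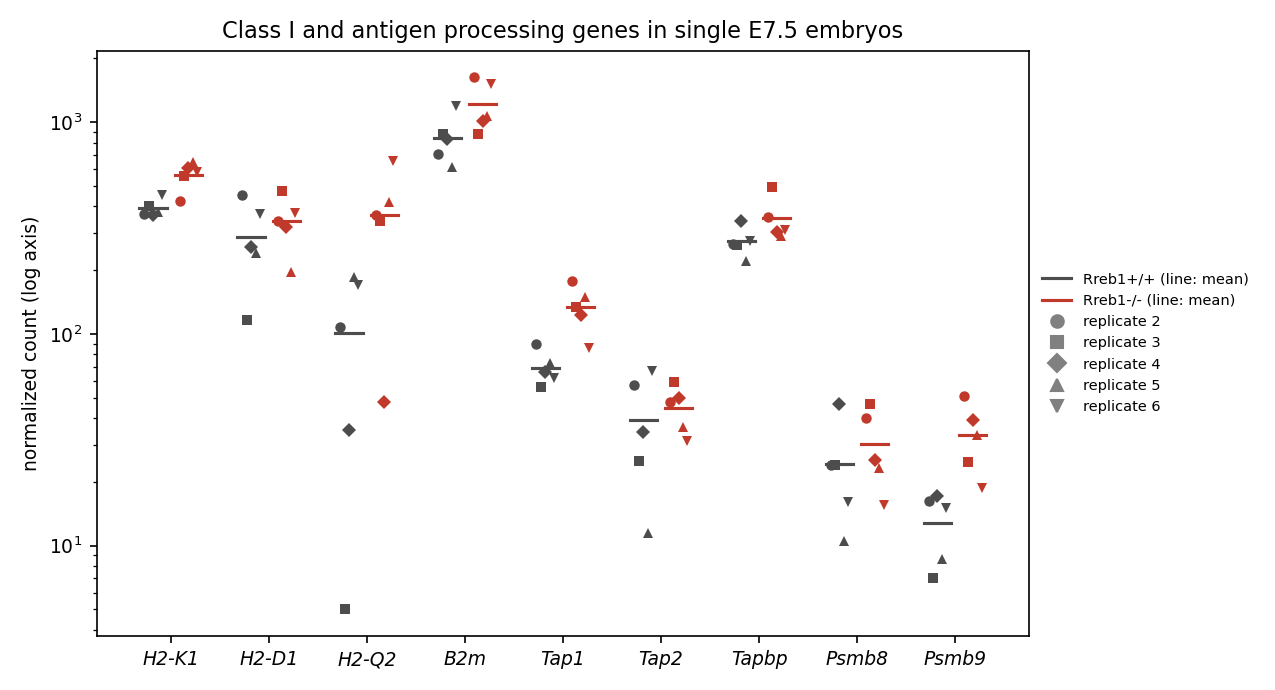
Normalized counts (log axis) of the 9 genes in each of the 10 embryos, with *Rreb1*+/+ in grey and *Rreb1*-/- in red. Marker shapes give the replicate number and lines the group means. *Psmb9* is the only gene whose embryos do not overlap between the genotypes, and *H2-Q2* spreads most, from 5.02 to 656.

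*H2-K1*, a classical heavy chain found on nearly all adult cells, was the steadiest of the 3 heavy chains. *Rreb1*+/+ embryos 2 to 6 had 369, 399.6, 366, 375 and 454 normalized counts and mutants 2 to 6 had 423, 558, 606, 649.6 and 579. In all, 4 mutants lay above every *Rreb1*+/+ embryo, and mutant 2 lay below *Rreb1*+/+ embryo 6. The mean rose from 393 ± 36.8 to 563 ± 85.6 (SD, n = 5 embryos each). The log2 fold change was 0.51 (SE 0.12, 95% interval 0.24 to 0.77, adjusted p = 0.0382 in limma; exact permutation test, two-sided, p = 0.0159). It was 0.47 within replicates 2 to 4 and 0.57 within replicates 5 and 6. Mutant 2, the lowest mutant for *H2-K1*, was also the mutant without Y-linked RNA. Adjusted for the Y-linked sum, the log2 fold change was 0.13 (adjusted p = 0.703 in limma), and the part of sex in the difference was not otherwise tested. The call held without *Rreb1*+/+ embryo 6 (0.56, adjusted p = 0.0428 in limma) and without mutant 2 (0.61, adjusted p = 0.00636 in limma), and was lost without any 1 of the other 8 embryos, at log2 fold changes of 0.45 to 0.52 (adjusted p = 0.0710 to 0.0920 in limma).

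*H2-D1*, the second classical heavy chain, overlapped widely between the genotypes. The 5 *Rreb1*+/+ embryos had 451, 116, 256, 240.1 and 366 normalized counts and the 5 mutants 342, 474, 321, 196 and 372. No mutant was below the lowest *Rreb1*+/+ embryo, 1 was above the highest, and *Rreb1*+/+ embryo 3 was the lowest of all. Means were 286 ± 128 and 341 ± 100.1 (SD, n = 5 each), with a log2 fold change of 0.34 (SE 0.34, 95% interval −0.41 to 1.08, adjusted p = 0.651 in limma; exact permutation p = 0.421). Within replicates 2 to 4 it was 0.65 and within replicates 5 and 6 it was −0.13. The ratio of *H2-K1* to *H2-D1* normalized counts ran from 0.819 in *Rreb1*+/+ embryo 2 to 3.43 in *Rreb1*+/+ embryo 3 and, among the mutants, from 1.18 in mutant 3 to 3.31 in mutant 5.

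*H2-Q2*, the non-classical heavy chain, had the largest ratio of means of the 9 genes and the largest spread. *Rreb1*+/+ embryos 2 to 6 had 107, 5.02, 35.3, 185 and 169.6 normalized counts and mutants 2 to 6 had 366, 339.8, 47.8, 418 and 656. In all, 4 mutants were above all *Rreb1*+/+ embryos, while mutant 4 was below 3 of them. Means were 101 ± 79.7 and 365 ± 217 (SD, n = 5 each), a ratio of 3.64. On the log2 scale the difference was 2.22 (SE 0.96, 95% interval 0.11 to 4.34), with an unadjusted p of 0.0406 in limma, and it did not pass the test (adjusted p = 0.254 in limma; exact permutation p = 0.0873). The SD of the log2 values was 2.07 among *Rreb1*+/+ embryos and 1.45 among mutants, against 0.13 and 0.24 for *H2-K1*. The low value of *Rreb1*+/+ embryo 3 rested on 5 reads, and without that embryo the log2 fold change was 1.40 (adjusted p = 0.426 in limma). It was 2.67 within replicates 2 to 4 and 1.56 within replicates 5 and 6. The paper, which used DESeq and its own cutoffs, reports *H2-Q2* as upregulated in these embryos. Here *H2-Q2* was called in 0 of 22 alternatives.

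**Figure D2:**
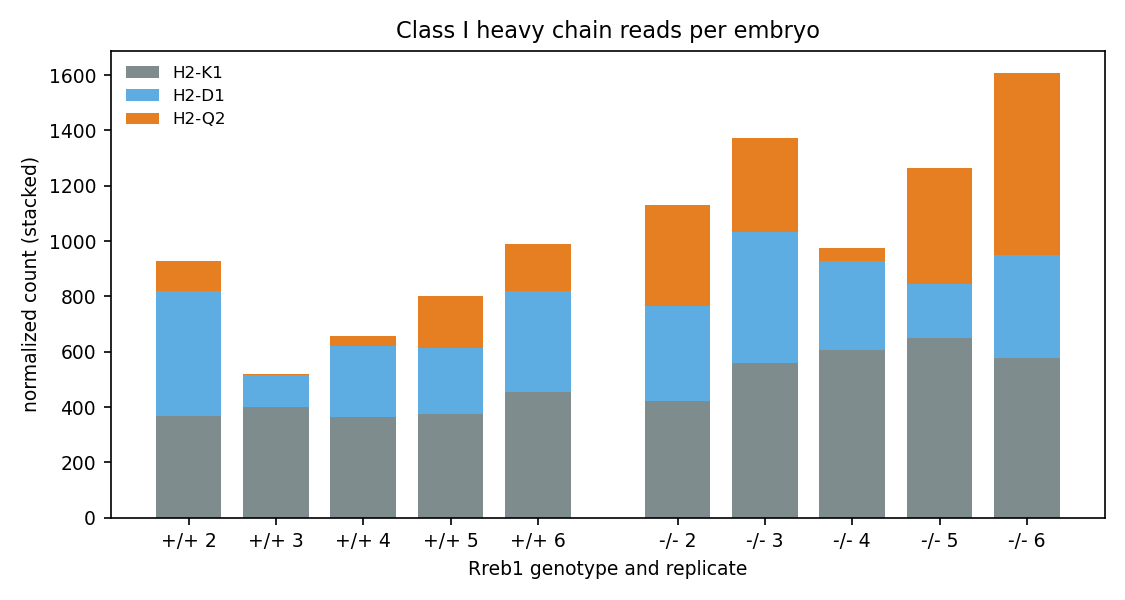
Stacked normalized counts of *H2-K1*, *H2-D1* and *H2-Q2* in each embryo, *Rreb1*+/+ on the left and *Rreb1*-/- on the right, with the replicate number below each bar. *H2-Q2* ranges from 0.963% of the stack in *Rreb1*+/+ embryo 3 to 40.8% in mutant 6, and is 4.90% in mutant 4.

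The 3 heavy chains together came to 779 ± 193 normalized counts in wild-type and 1270 ± 240.2 in mutant embryos (SD, n = 5 each). Mutant 4, with 975, was just below *Rreb1*+/+ embryo 6, with 990.1, and the other 4 mutants were above all *Rreb1*+/+ embryos. *H2-Q2* made up 11.6%, 0.963%, 5.38%, 23.2% and 17.1% of that sum in wild-type embryos and 32.3%, 24.8%, 4.90%, 33.1% and 40.8% in the mutants. The embryos lowest in *H2-Q2* (*Rreb1*+/+ 3 and 4 and mutant 4) had 46.2, 45.8 and 53.1 normalized counts of *H2-Bl*, another gene of the class I family, and the remaining embryos had 8.31 to 25.4 except mutant 5, with 98.5. *Rreb1*+/+ embryo 3, the lowest in *H2-D1* and *H2-Q2*, also had no read of *H2-Q7*, a Qa family gene that had 24.4 to 80.3 normalized counts in the other 9 embryos. The class I genes are near copies of each other and differ between mouse strains. Of all 50-base windows in the *H2-Q2* transcripts, 16.1% also occur in another gene (12.9% in *H2-Q1*), against 9.63% for *H2-K1* and 12.8% for *H2-D1*. The H2 haplotype of each embryo is not given in the sources used here, and the part of sequence differences in these counts was not tested.

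*B2m*, the light chain shared by all class I molecules, had the highest level per length of the 9 genes. *Rreb1*+/+ embryos 2 to 6 had 707, 881, 835, 615 and 1190 normalized counts and mutants 2 to 6 had 1627, 881, 1015, 1069 and 1506. Mutants 2 and 6 were above all *Rreb1*+/+ embryos, and mutants 3, 4 and 5 were below *Rreb1*+/+ embryo 6. Means were 846 ± 219 and 1220 ± 327 (SD, n = 5 each), and the log2 fold change was 0.52 (SE 0.20, 95% interval 0.07 to 0.97), which did not pass the test (adjusted p = 0.208 in limma; exact permutation p = 0.0714). The difference was 0.49 within replicates 2 to 4 and 0.57 within replicates 5 and 6. No 50-base window of the *B2m* transcripts occurs in another gene, unlike those of the heavy chains.

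*Tap1*, a subunit of the peptide transporter, rose from 69.3 ± 12.7 to 134 ± 34.1 normalized counts (SD, n = 5 each). Its values were 89.2, 56.2, 65.9, 73.0 and 62.2 in wild-type embryos and 178, 134, 123, 149.6 and 85.5 in the mutants. Mutant 6 was just below *Rreb1*+/+ embryo 2, and the other 4 mutants were above every *Rreb1*+/+ embryo. The log2 fold change was 0.92 (SE 0.21, 95% interval 0.47 to 1.37, adjusted p = 0.0289 in limma; exact permutation p = 0.0159). It was 1.04 within replicates 2 to 4 and 0.74 within replicates 5 and 6. Adjusted for the Y-linked sum it was 1.35 (adjusted p = 0.123 in limma), and under quantile normalization 0.87 (adjusted p = 0.0641 in limma). The call held without *Rreb1*+/+ embryo 2 (1.01, adjusted p = 0.0288 in limma) and without mutant 6 (1.07, adjusted p = 0.00818 in limma), and was lost without any 1 of the other 8 embryos, at 0.81 to 0.94 (adjusted p = 0.0592 to 0.0783 in limma).

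*Tap2*, which pairs with Tap1 in the transporter, overlapped fully between the genotypes. It had 57.6, 25.1, 34.4, 11.5 and 66.9 normalized counts in wild-type embryos and 47.7, 59.2, 49.9, 36.2 and 31.3 in the mutants, all of which lay within the *Rreb1*+/+ range. The log2 fold change was 0.39 (SE 0.42, adjusted p = 0.670 in limma; exact permutation p = 0.460). *Tapbp*, the loading chaperone tapasin, had 266, 264, 343, 222 and 275 normalized counts in wild-type embryos and 357, 496, 302, 291 and 308 in the mutants. Mutants 2 and 3 were above all *Rreb1*+/+ embryos and the other 3 were below *Rreb1*+/+ embryo 4. Its means were 274 ± 43.6 and 351 ± 85.0 (SD, n = 5 each), with a log2 fold change of 0.34 (SE 0.16, 95% interval −0.02 to 0.70, adjusted p = 0.311 in limma; exact permutation p = 0.0873). Within replicates 2 to 4 and within 5 and 6, the log2 fold change was 0.49 and 0.25 for *Tap2* and 0.38 and 0.28 for *Tapbp*. Of the *Tapbp* windows of 50 bases, 23.2% also occur in another gene model, mostly *Gm19412*, and 11.6% of those of *Tap2*.

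*Psmb9*, the immunoproteasome subunit that takes the place of Psmb6, was the only one of the 9 genes with no overlap between the genotypes. *Rreb1*+/+ embryos 2 to 6 had 16.3, 7.03, 17.2, 8.64 and 15.1 normalized counts and mutants 2 to 6 had 50.9, 24.9, 39.3, 33.5 and 18.8. Every mutant was above every *Rreb1*+/+ embryo, though mutant 6 and *Rreb1*+/+ embryo 4 were close. Of all genes tested, 4.24% (662) had all mutants above all *Rreb1*+/+ embryos. Means were 12.8 ± 4.67 and 33.5 ± 12.5 (SD, n = 5 each), a ratio of 2.60, from 7 to 48 reads per library. The log2 fold change of 1.31 (SE 0.34, 95% interval 0.57 to 2.05) did not pass (adjusted p = 0.0522 in limma). *Psmb9* was tested only because the mutants reached the mean of 15, and with all genes of the table tested its adjusted p was 0.0608 in limma. The exact permutation p was 0.00794, the smallest that the 252 arrangements of 5 against 5 embryos can give. In an alternative fit with the replicate number as a block, *Psmb9* passed at the same 1.31 (adjusted p = 0.0335 in limma). It also passed in edgeR (1.37, adjusted p = 0.0450) and DESeq2 (1.38, adjusted p = 0.0183). Both used the same filter at a mean of 15, and neither was run without it. Without mutant 6 *Psmb9* passed too, at 1.49 (adjusted p = 0.0338 in limma). Without any 1 of the other embryos it did not, at 1.13 to 1.43 (adjusted p = 0.0671 to 0.126 in limma). Nor did it pass under quantile normalization (1.33, adjusted p = 0.0639 in limma). In all, 6 of 21 alternatives called it. It was 1.47 within replicates 2 to 4 and 1.07 within replicates 5 and 6, and 1.92 once adjusted for the Y-linked sum (adjusted p = 0.158 in limma).

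Against *Psmb6*, the constitutive subunit it replaces, *Psmb9* stood at 0.0835% to 0.202% of the normalized count in *Rreb1*+/+ embryos and 0.227% to 0.758% in mutants. *Psmb6* itself had 8621 ± 809 and 8180 ± 1006 normalized counts (SD, n = 5 each; log2 fold change −0.08, adjusted p = 0.703 in limma). *Psmb8*, the immunoproteasome counterpart of Psmb5, had 23.99, 24.1, 46.8, 10.56 and 16.0 normalized counts in wild-type embryos and 40.3, 46.8, 25.5, 23.2 and 15.6 in the mutants. The genotypes overlapped throughout, at a log2 fold change of 0.37 (SE 0.40, adjusted p = 0.677 in limma; exact permutation p = 0.437), with 0.27 within replicates 2 to 4 and 0.52 within 5 and 6. *Psmb8* rested on 11 to 49 reads per library. In the GENCODE models *Tap1* and *Psmb9* start 211 bases apart on opposite strands and share 2.88% and 4.19% of their respective 50-base windows. The libraries kept strand, but the strand setting of the counting is not given in the sources used here.

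**Figure D3:**
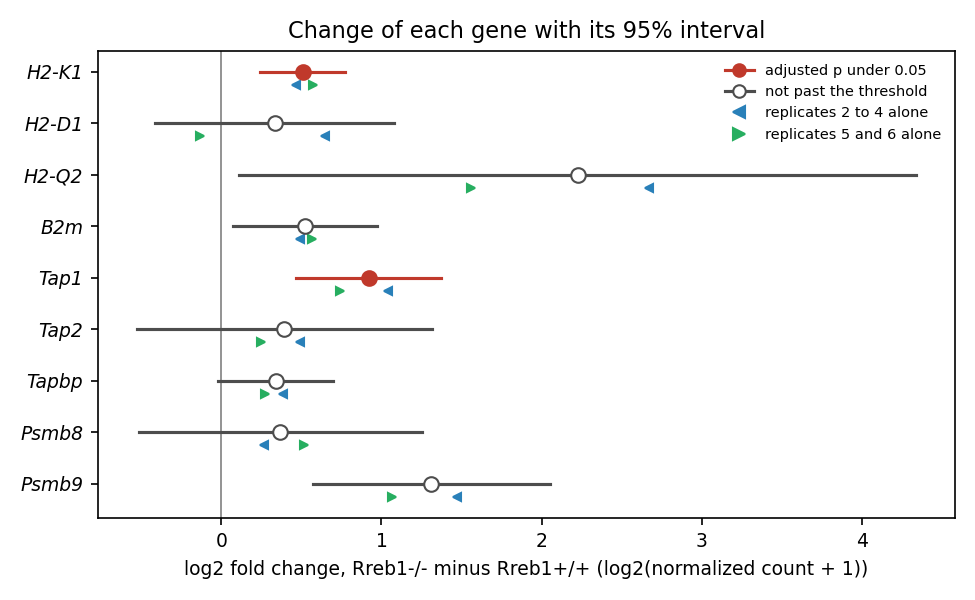
Log2 fold change of each of the 9 genes, *Rreb1*-/- minus *Rreb1*+/+, on the log2(normalized count + 1) scale, with its 95% interval from limma. Filled red circles passed the test, open circles did not, and triangles give the difference within replicates 2 to 4 and within replicates 5 and 6. The one triangle below 0 is *H2-D1* in replicates 5 and 6 (−0.13).

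Per kilobase of exon, the mean level in *Rreb1*+/+ embryos fell in the order *B2m* (983 ± 255 normalized counts per kb), *H2-K1* (134 ± 12.5), *H2-D1* (111 ± 49.6), *Tapbp* (75.5 ± 12.03), *H2-Q2* (46.1 ± 36.5), *Tap1* (12.7 ± 2.32), *Tap2* (10.34 ± 6.05), *Psmb8* (7.18 ± 4.09) and *Psmb9* (3.51 ± 1.28; SD, n = 5). *B2m* was above all others in every embryo, and every later neighbouring pair in that order overlapped between embryos. In the mutants *H2-Q2*, at 168 ± 99.6 per kb, came between *H2-K1* (192 ± 29.1) and *H2-D1* (132 ± 38.8), and overlapped with both. *Psmb9* (9.14 ± 3.42) and *Psmb8* (8.96 ± 3.79) were last and overlapped. *B2m* was at 1418 ± 380 per kb in the mutants, again above the other genes in every embryo.

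The other genes of the pathway were taken from 4 lists, of which 79 were in the table and 74 were tested. None was called by limma in either direction (0 higher, 0 lower). At an unadjusted p under 0.05, 3 were higher and 3 were lower. edgeR called 0 and DESeq2 called 1, *H2-M3* (log2 fold change 0.92, adjusted p = 0.0461). Of the 74, 47 were above and 27 below 0, with a median log2 fold change of 0.05. Among 15 other class I and class I-like heavy chains, none passed, and the median was 0.19. *H2-M3*, which presents formylated peptides, came nearest, at 33.8 ± 9.58 and 64.1 ± 20.9 normalized counts in wild-type and mutant embryos (SD, n = 5 each), a log2 fold change of 0.89 (adjusted p = 0.0984 in limma). It was named, as were the next genes, after their values were seen. The Qa genes *H2-Q4* (−0.08), *H2-Q6* (0.24), *H2-Q7* (1.11) and *H2-Q10* (0.71) did not pass, with adjusted p of 0.294 to 0.906 in limma.

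A further 16 loading and trimming genes were tested, from the chaperones *Calr*, *Canx* and *Pdia3* to the peptidases *Erap1* and *Blmh*, and none passed (median 0.05). *Erap1*, which trims peptides in the endoplasmic reticulum, had 268 ± 74.3 and 418 ± 166 normalized counts (SD, n = 5 each; log2 fold change 0.59, adjusted p = 0.327 in limma). *Blmh*, a cytosolic peptidase, did not overlap between genotypes but differed little, at 7032 ± 290.0 and 7719 ± 301 (log2 fold change 0.13, adjusted p = 0.174 in limma). Of 20 other proteasome subunits and activators, 15 were above and 5 below 0, with a median of 0.08 and none called. *Psmb10*, the remaining immunoproteasome subunit, had 422 ± 85.9 and 391 ± 82.5 normalized counts (SD, n = 5 each; log2 fold change −0.11, adjusted p = 0.779 in limma). The interferon-inducible activator subunits *Psme1* and *Psme2* had log2 fold changes of 0.05 and 0.12 (adjusted p = 0.879 and 0.669 in limma).

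Of 23 regulators of class I transcription, 12 were above and 11 below 0, and none passed in limma. *Nlrc5*, the class I transactivator, was low, with 14.3 ± 7.58 and 20.7 ± 10.58 normalized counts (SD, n = 5 each; log2 fold change 0.52, adjusted p = 0.554 in limma). *Irf1*, an interferon-induced activator of class I genes, had a log2 fold change of 0.39 (adjusted p = 0.664 in limma). The NF-kB subunits *Rela* (−0.30, adjusted p = 0.176 in limma) and *Nfkb1* (−0.35, adjusted p = 0.164 in limma) and the kinase *Tyk2* (−0.27, adjusted p = 0.265 in limma) were the 3 genes lower at an unadjusted p under 0.05. Within replicates 2 to 4 alone *Nfkb1* passed, at −0.51 (adjusted p = 0.0316 in limma), and within replicates 5 and 6 its difference was −0.11.

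**Figure D4:**
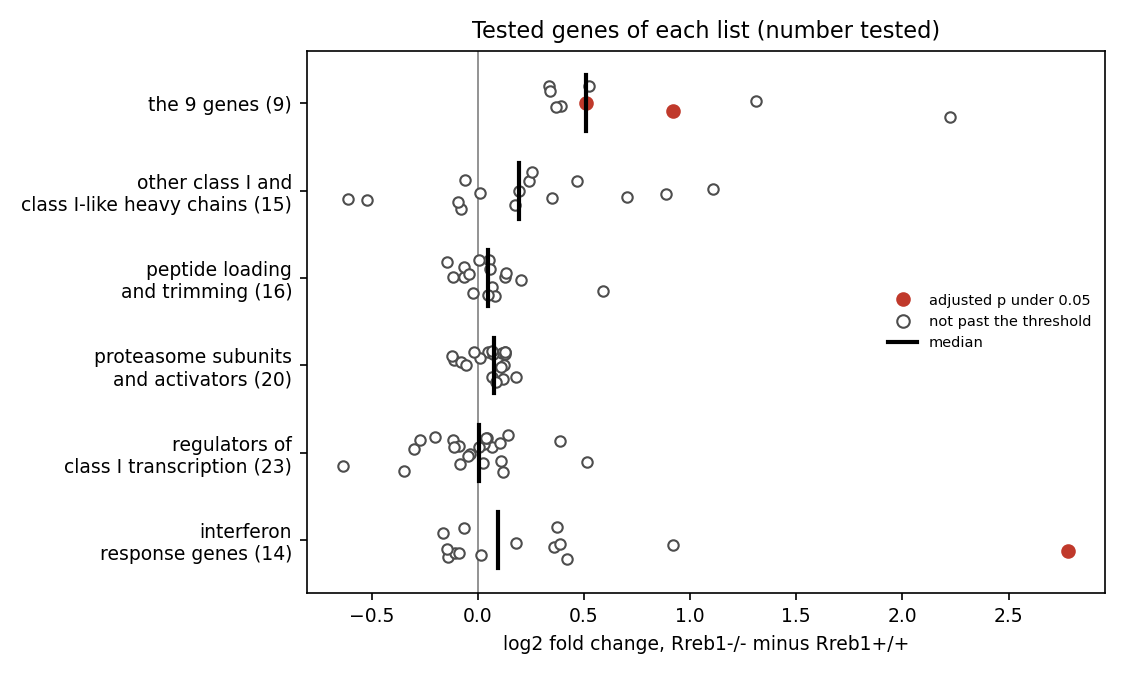
Log2 fold change, *Rreb1*-/- minus *Rreb1*+/+, of every tested gene of the 9 genes, of the 4 other lists of the pathway and of the interferon response list, with the number tested beside each name. Filled red circles passed limma's test at an adjusted p under 0.05 and black bars are medians, 0.51 for the 9 genes and 0.01 to 0.19 for the 4 lists. The point at 2.78 is *Cxcl10*.

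Among 14 tested interferon response genes, 1 rose and none fell in limma (unadjusted p under 0.05 for 2 higher and 0 lower). *Cxcl10*, a chemokine induced by interferons and by other signals, had 15.4, 11.04, 10.503, 4.80 and 13.2 normalized counts in wild-type embryos and 98.5, 138, 68.0, 45.5 and 63.6 in the mutants. Every mutant was above every *Rreb1*+/+ embryo, at a log2 fold change of 2.78 (SE 0.35, adjusted p = 0.00109 in limma). The median of the 14 genes was 0.10, and 8 were above 0. *Ifitm2*, the highest of them by mean, had a log2 fold change of −0.06 (adjusted p = 0.826 in limma). The summed list was 6411 to 7805 in *Rreb1*+/+ and 6260 to 8046 in *Rreb1*-/- embryos. Most of that sum came from *Ifitm1* (means 2325 and 2210) and *Ifitm2* (means 2593 and 2505), so it says little about the other genes.

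Most of the other genes around these on chromosome 17 were below 0. Between *Tapbp* and *H2-Q2*, a stretch of 1.43 Mb, 63 other genes were tested and 15 of them were above 0, and their median was −0.11 on the log2 scale. None was called higher by limma, edgeR or DESeq2, with 1 higher and 6 lower in limma when p was not adjusted (under 0.05). In limma 2 were called lower, the complement factor gene *Cfb* (−1.40, adjusted p = 0.00202 in limma) and the transporter gene *Slc44a4* (−0.64, adjusted p = 0.0176 in limma). The difference in direction between the 8 genes of the pathway in this stretch and these 63 was not tested.

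Markers of cells rich in class I were followed beside these genes. Of the class II and antigen presenting cell markers 9 were in the table, and their sum was 172 to 262 normalized counts in *Rreb1*+/+ and 167 to 281 in *Rreb1*-/- embryos, with none of the 5 tested called by limma and none at an unadjusted p under 0.05. At the top of them *H2-Ab1* had 64.7 ± 27.04 and 57.9 ± 21.6 normalized counts (SD, n = 5 each). The sum of 12 immune cell markers was 341 to 477 in *Rreb1*+/+ and 430.1 to 747 in *Rreb1*-/- embryos. Of the 6 tested, 1 was called, *Coro1a*, an actin-binding protein of leukocytes and also the highest by mean. It had 106, 124, 199, 83.5 and 137 normalized counts in wild-type embryos and 283, 407, 292, 401 and 361 in the mutants, with every mutant above every wild-type embryo (log2 fold change 1.46, adjusted p = 0.00276 in limma). *Laptm5*, a lysosomal protein of leukocytes, was lower in the mutants without passing, at 95.8 ± 23.6 and 53.6 ± 11.1 (SD, n = 5 each; log2 fold change −0.81, adjusted p = 0.0539 in limma). Without *Coro1a* the immune sum was 213 to 394 in *Rreb1*+/+ embryos, 138 to 241 in mutants 2 to 5 and 386 in mutant 6. *Ptprc*, the leukocyte surface marker CD45, had 0 to 2.86 normalized counts in 8 embryos, 40.3 in *Rreb1*+/+ embryo 5 and 28.2 in mutant 6, and was at 0 in 3 of the 10. The maternal decidua markers (7 in the table) summed to 1295 to 1840 in *Rreb1*+/+ and 1458 to 3100 in *Rreb1*-/- embryos, highest in mutants 2 (3100) and 6 (2738), with *Bmp2* the highest gene by mean and *Prl8a2* at 0 in 6 embryos. In mutant 2 the single gene *Igfbp1* gave 1614 of the 3100, and without it the sum was 1242 to 1489 in *Rreb1*+/+ embryos, 1487 in mutant 2 and 2056 in mutant 6. *Bmp2* gave 1172 of the 2056 in mutant 6, against 684 to 852 in *Rreb1*+/+ embryos. None of the 6 tested decidua markers was called by limma, and 1, *Pgr*, was higher at an unadjusted p under 0.05. *Pgr* had 188 ± 30.6 and 281 ± 46.7 normalized counts (SD, n = 5 each; log2 fold change 0.57, adjusted p = 0.0618 in limma). Mutants 2 and 6 were also the highest in *B2m*, while mutant 6 was the lowest mutant in *Tap1* and *Psmb9*. The part of immune or maternal cells in the levels of the 9 genes was not tested.

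The summed markers of each extraembryonic lineage were above 0 in every library. The trophoblast genes *Prl3d1*, *Prl2c2* and *Tpbpa* were each at 0 in some libraries. The visceral endoderm markers summed to 282987 to 320571 normalized counts in *Rreb1*+/+ and 212691 to 307042 in *Rreb1*-/- embryos. *Apob* was the highest of them, and 1 of 10 was called, *Afp*, with 10885 to 15296 normalized counts in wild-type embryos and 2831 to 7989 in the mutants, which fell by 1.32 on the log2 scale (adjusted p = 0.0157 in limma). The trophoblast markers summed to 11063 to 15939 and 11889 to 16499, with *Hand1* the highest gene. None of the 9 tested was called by limma or had an unadjusted p under 0.05. The endothelium and blood markers, led by *Kdr* and the embryonic globin *Hbb-bh1*, had a median log2 fold change of −0.91 over 13 tested genes. None of the 13 was called by limma, and 2 were lower at an unadjusted p under 0.05.

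The genes whose log2 values ran most like those of *H2-Q2* over the 10 embryos were *Gm2237* (Pearson r = 0.960), *Gm10247* (0.931), *Hrc* (0.911), *Akr1b3* (0.910) and *Rps6ka2* (0.904). For *B2m* they were *Tnfrsf4* (0.921), *Crim1* (0.900), *RP24-174G2.1* (0.899), *Gm12319* (0.896) and *Scpep1* (0.894). None of these is a gene of the pathway lists. The 10 points share libraries and both genotypes enter, and the genes were picked as the highest of all tested, so these values are a description. Of the other 8 genes, *H2-D1* ran most like *H2-Q2* (r = 0.618) and *Psmb8* least (−0.137), and *Psmb9* ran most like *B2m* (0.589).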

How the data were processed

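Total RNA of each embryo was selected for polyA, made into TruSeq stranded libraries and read as pairs of 50 bases. By the authors' account, STAR aligned the reads in 2 passes, files were sorted with Picard, reads were counted per gene with HTSeq and counts were scaled with DESeq. Genome build, gene models and strand setting: not given in the sources used here. The deposited signal of each gene is thus a read count divided by the size factor of its library. In all 10 columns every value was a whole number of reads (100% of values, tolerance 0.1 read), so reads could be recovered for the count tests. Depth was 31467767 to 35786876 reads per embryo.

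Genotypes were compared with limma 3.58.1 (R 4.3.3) on log2(normalized count + 1), with the variance following the mean, over the 15603 genes whose mean reached 15 in either genotype. P-values were adjusted by Benjamini-Hochberg over all of these and called under 0.05. A fold change on this scale understates the change of low genes. Exact permutation tests were two-sided over 252 arrangements. Alternatives were edgeR 4.0.16, DESeq2 1.42.0, other scalings, pseudocounts, filters and subsets of embryos, a Y-linked covariate and a replicate block. Same-numbered embryos deviated together from their group means (correlations 0.253 to 0.459 over genes in 5 pairs), and the own number was the best match for 2 of the 5 wild-type embryos and not for the other 3. The labels name no shared litter or day, and the fit reported and the exact tests did not pair the embryos. Since every correlation was over 0.1, the numbers were used as a block in an alternative fit. Scripts were tested on simulated data. The labels do not say that the embryos came from separate litters, so p-values measure the spread between these embryos. The replicate number is that of the titles. GENCODE M21 models were matched by gene ID to 20884 of 20974 genes, for lengths, positions and shared 50-base windows.

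The 9 genes and all lists were chosen with earlier results of these data known. All 9 genes were named with every embryo's value. Each called gene of the lists was also named, with the highest gene by mean of each marker list and, for *H2-Q2* and *B2m*, the 5 genes of highest Pearson r. Other named genes were chosen after their values were seen.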

Additional observations from a re-analysis of the deposited data

How the results depend on the processing

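Of 195 values of the 9 genes under 22 alternatives, 194 kept the direction of the fit reported. The exception was *H2-D1* within replicates 5 and 6 alone, at a log2 fold change of −0.13 (adjusted p = 0.907 in limma). Beside 2 of the 9 genes called higher, quantile normalization called 1, and 0 were called once adjusted for the Y-linked sum (3 at an unadjusted p under 0.05 in limma), 0 within replicates 2 to 4 alone (4 unadjusted) and 0 within replicates 5 and 6 alone (2 unadjusted). Leaving out 1 embryo at a time gave 0 to 2 called, with 0 without *Rreb1*+/+ embryo 3, 4 or 5 or mutant 3, 4 or 5, 1 without *Rreb1*+/+ embryo 2 or 6 or mutant 2, and 2 (*Tap1* and *Psmb9*) without mutant 6. The replicate block, edgeR, DESeq2 and a pseudocount of 5 each called 3, adding *Psmb9*, and the block changed no other call of the 9 genes or of the pathway lists. No gene of the 9 was called lower under any alternative. Of the pathway lists, DESeq2 called 1 higher (*H2-M3*) and replicates 2 to 4 alone called 1 lower (*Nfkb1*), and every other alternative called 0. The share of all tested genes called higher moved from 3.11% to 5.03% with DESeq2, 4.59% with the replicate block and 0.532% with the Y-linked covariate. The covariate rests on mutant 2 alone to separate sex from genotype. *Psmb9*, *Psmb8* and *Tap2*, with 7 to 71 reads per library, were left out by the filter at a mean of 50. The causes of these changes were not tested.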
